A study of Mus musculus with 20 samples.

Results

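The 9 genes examined here, *Tcf7*, *Lef1*, *Bach2*, *Id3*, *Bcl6*, *Satb1*, *Myb*, *Slamf6* and *Cxcr5*, are factors and receptors that mark stem-like, memory and follicular helper T cells. They were chosen by name, and all 9 were found among the 17101 genes of the table. RNA-Seq was performed on 20 libraries of donor T cells sorted from recipient spleens on day 10 after allogeneic transplantation, with 4 libraries in each of 5 groups. Donors were 6 to 12 weeks old on the B6 background and recipients were B6D2F1 mice of 8 to 12 weeks. In the KO groups *Dnmt3a*, which encodes a de novo DNA methyltransferase, carried 2loxP alleles deleted by CD4-Cre, and the WT groups came from littermates. The KO libraries were of sorted CD4+, CD8+ and CD4+CD8+ double-positive (DP) cells, and the WT libraries of sorted CD4+ and CD8+ cells. Cre was driven by the *Cd4* promoter, which is active in the thymic stage that precedes both lineages, and each library held the donor T cells of 1 gate, not a single clone or state. In bulk RNA, fewer cells of a type and less RNA per cell cannot be told apart.

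*Tcf7* and *Lef1* encode sister DNA-binding proteins of the TCF/LEF family, which keep naive, memory and stem-like T cells able to self-renew and fall when cells become terminal effectors. *Bach2*, *Bcl6* and *Id3* encode proteins that restrain effector programs: BACH2 occupies AP-1 sites, BCL6 represses *Prdm1* and directs the follicular helper fate, and ID3 sequesters E proteins. SATB1 folds chromatin into loops in T cells, MYB sustains stem-like CD8+ T cells, and SLAMF6 and CXCR5 are surface receptors by which such cells and follicular helper cells are recognized.

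The libraries held between 37547651 and 46966318 reads on genes. DP cells of KO animal 3 stood apart with 11783 genes with reads, against 13203 to 14677 in the other libraries. *Dnmt3a* was below the WT range in all KO libraries, with 1385 to 1658 normalized counts in KO CD4+ cells against 4690 to 5171 in WT CD4+ cells, 1287 to 2007 in KO CD8+ cells against 3542 to 3812 in WT CD8+ cells, and 650 to 1571 in DP cells. A count over the whole gene also takes in exons outside the floxed part. No WT DP group was analysed here. *Cd4* and *Cd8a* separated the single-positive subsets by label, but with traces of the other coreceptor. *Cd4* was higher in KO than in WT CD8+ cells, with 302 to 458 against 9.88 to 79.6 normalized counts (log2 difference 3.88, adjusted p = 0.00263 in limma). CD4+ cells of KO animal 1 had 3771 normalized counts of *Cd8a*, the alpha chain of CD8, against 78.3 to 227 in the other KO CD4+ libraries. DP cells had 41594 to 68516 of *Cd8a* but 8758 to 15351 of *Cd4*, against 44804 to 74386 of *Cd4* in KO CD4+ cells, and *Rag1*, which is active in thymic double-positive cells, had a median of 0 and reached 38.5 in a single DP library. Values without these libraries are given below where they change a result.

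Since *Dnmt3a* encodes an enzyme that methylates CpG sites, the 250 bases before the annotated start are shown for the members that differed between KO and WT cells, with each CpG in capitals. The windows are *Lef1* at chr3:131110047-131110296 (plus strand), *Satb1* at chr17:51833291-51833540 (minus strand) and *Id3* at chr4:136143572-136143821 (plus strand) of GRCm38.p6, all read 5′ to 3′ from RefSeq. Each lies just outside the annotated span of its own gene, and where a gene has several starts (4 windows for *Lef1* and 5 for *Satb1*) the most upstream was taken.
Lef1: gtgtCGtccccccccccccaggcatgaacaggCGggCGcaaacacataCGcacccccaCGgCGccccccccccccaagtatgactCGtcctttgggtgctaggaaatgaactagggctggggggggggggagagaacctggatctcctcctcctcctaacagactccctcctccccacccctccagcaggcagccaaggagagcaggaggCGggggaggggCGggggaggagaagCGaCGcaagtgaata
Satb1: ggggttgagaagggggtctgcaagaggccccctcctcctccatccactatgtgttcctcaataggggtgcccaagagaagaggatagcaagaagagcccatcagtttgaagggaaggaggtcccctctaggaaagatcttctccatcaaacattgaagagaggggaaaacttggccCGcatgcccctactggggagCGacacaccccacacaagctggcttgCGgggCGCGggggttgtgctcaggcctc
Id3: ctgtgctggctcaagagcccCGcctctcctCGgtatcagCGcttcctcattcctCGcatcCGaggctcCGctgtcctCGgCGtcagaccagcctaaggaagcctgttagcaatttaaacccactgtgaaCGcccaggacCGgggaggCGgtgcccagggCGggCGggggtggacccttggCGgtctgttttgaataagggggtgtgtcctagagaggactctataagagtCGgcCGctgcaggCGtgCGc
The *Lef1* window held 11 CpG sites, that of *Satb1* held 5 and that of *Id3* held 18, against a median of 14 over the windows of 12411 genes in the table. Among the members not called between KO and WT cells, the windows of *Myb* and *Tcf7* held 40 and 37 sites, those of *Bcl6* and *Bach2* held 21 and 7, and that of *Slamf6* held 1. The members thus covered nearly the whole range of CpG content, with 2.30% of genes below *Slamf6* and 97.9% below *Myb*. *Cxcr5* had no window. The *Bach2* window (chr4:32417185-32417434) and the *Tcf7* window (chr11:52283015-52283264) lay inside the gene spans given below, so their starts are not the outermost annotated ends. The windows of *Bcl6* and *Slamf6* overlapped their gene spans at the edge. Motifs of the members' own families were searched on both strands. The TCF/LEF letters CTTTGA were found in the *Bach2* window alone (11.6% of all windows hold them), and the BCL6/STAT letters TTCNNNGAA in those of *Bach2* (TTCGTTGAA) and *Bcl6* itself (TTCTCAGAA), 118 bases before the start in *Bcl6* (found in 6.20% of all windows). The E-box letters CAGNTG were found in those of *Tcf7* and *Slamf6* (40.7%), where the *Slamf6* match also reads as the MYB letters CAACTG (9.05%), and the BACH/AP-1 letters TGANTCA in none (4.97%). None of these letters was found in the *Lef1*, *Satb1* or *Id3* window. Methylation of these windows was not analysed here.

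KO cells were compared with WT cells to learn which of these factors differed after loss of *Dnmt3a*. *Lef1* and *Satb1* were higher in KO cells of both subsets, *Id3* was lower in KO CD8+ cells, and *Tcf7* and *Slamf6*, which are usually read together with *Lef1* as stem-like markers, differed by little. Differences are on the scale of log2(normalized count + 1), with the SE of limma, and adjusted p values come from limma over all genes tested. In CD4+ cells 2 of the 9 members were called, both higher, where 18.4% of all genes tested were called, 8.59% higher and 9.77% lower. In CD8+ cells 3 members were called, 2 higher and 1 lower, where 25.2% of genes were called, 12.6% higher and 12.5% lower. With libraries scaled to a common 75th percentile the split over all genes moved to 475 higher and 2149 lower in CD4+ cells, from 1064 and 1210, and to 689 and 2252 in CD8+ cells, from 1566 and 1552, and *Lef1* and *Satb1* were still called higher in both subsets. The libraries of these 2 and 3 members lay apart between the genotypes, as did those of *Bcl6* in CD8+ cells, where 25.6% of genes in CD4+ and 30.6% in CD8+ cells had groups that did not overlap. The median difference of the 9 members was -0.33 in CD4+ cells and -0.04 in CD8+ cells, beside -0.05 and -0.04 over all genes tested.

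*Lef1* had 7179, 7074, 5213 and 8533 normalized counts in the 4 KO CD4+ libraries and 4544, 3631, 3796 and 3908 in the 4 WT CD4+ libraries. Every KO library lay above every WT library, and KO cells were 1.74-fold higher (log2 difference 0.80 ± 0.14, adjusted p = 0.00654). In CD8+ cells the values were 6634, 5613, 3256 and 6970 in KO and 2230, 2530, 2283 and 2608 in WT libraries. The groups again did not overlap, and KO cells were 2.24-fold higher (1.16 ± 0.21, adjusted p = 0.0057). *Lef1* in KO CD8+ cells was thereby above the WT CD4+ libraries in 3 of 4 animals. With all 20 libraries in 1 fit the call in CD4+ cells was lost (adjusted p = 0.0714), and that in CD8+ cells was not.

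*Tcf7*, the sister gene of *Lef1*, was not called in either subset with all libraries. KO CD4+ libraries held 16548, 10798, 16373 and 25537 normalized counts and WT CD4+ libraries 20403, 12680, 15400 and 17903. The groups overlapped, and the difference of 0.02 ± 0.23 had a 95% interval of -0.49 to 0.53 (adjusted p = 0.966). In CD8+ cells KO libraries held 5919, 1458, 3834 and 6199 and WT libraries 2546, 2876, 3397 and 3936, so that 1 KO library lay below all WT libraries and 2 lay above them. The difference was 0.27 ± 0.40 (interval -0.63 to 1.17, adjusted p = 0.649). Without CD8+ cells of KO animal 2, the library with 1458, it was 0.73 and was called (adjusted p = 0.032).

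The ratio of *Lef1* to *Tcf7* reads within a library does not depend on the scaling between libraries. It was 0.218 to 0.286 in WT CD4+ cells and 0.318 to 0.655 in KO CD4+ cells, and 0.663 to 0.880 in WT CD8+ cells and 0.849 to 3.85 in KO CD8+ cells. The CD4+ groups did not overlap, and the CD8+ groups overlapped at a single KO library, that of animal 3. *Lef1* reads per *Slamf6* read were likewise 0.413 to 0.488 in WT CD4+ and 0.603 to 1.03 in KO CD4+ cells, and 0.746 to 0.839 in WT CD8+ and at least 1.23 in KO CD8+ cells, with no overlap in either subset. Both ratios reuse *Lef1* values already seen to differ, so they are a description and not separate support. The share of other gene pairs without overlap was not computed.

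*Satb1* held 20412, 21063, 20101 and 23090 normalized counts in KO CD4+ libraries and 13133, 11679, 10610 and 11617 in WT CD4+ libraries. The KO libraries lay close together and far above the WT libraries, at 1.80-fold (0.85 ± 0.08, adjusted p = 0.000594). KO CD8+ libraries held 11561, 7161, 13946 and 17941, and WT CD8+ libraries 6507, 6564, 5939 and 6341. The KO libraries were more scattered but all above the WT range, at 1.89-fold (0.92 ± 0.23, adjusted p = 0.0186). That call was lost without the CD8+ library of WT animal 5 (adjusted p = 0.0552) or WT animal 6 (adjusted p = 0.0522), while the difference stayed at 0.89 and 0.92.

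*Id3* was the member that fell. KO CD8+ libraries held 87, 36, 120 and 70 normalized counts and WT CD8+ libraries 154, 186, 230 and 222. All KO libraries lay below all WT libraries, and WT cells were 2.71-fold higher than KO cells (-1.44 ± 0.35, adjusted p = 0.0177). In CD4+ cells KO libraries held 463, 316, 647 and 749 and WT libraries 942, 596, 901 and 968, which overlapped, and the difference of -0.70 ± 0.26 was not called (adjusted p = 0.0859), but was with the 75th percentile scaling (-0.81, adjusted p = 0.0497) and without CD4+ cells of KO animal 4 (-0.87, adjusted p = 0.0454). The CD8+ call was lost in the fit of all 20 libraries (adjusted p = 0.0573) and without the CD8+ library of WT animal 5 or 6 (adjusted p = 0.0578 and 0.0577). *Id3* and *Lef1* thus differed in opposite directions in the same bulk CD8+ libraries.

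The repressor genes *Bcl6* and *Bach2* were not called in either subset. *Bcl6* held 124, 90, 369 and 307 normalized counts in KO CD8+ libraries and 375, 393, 381 and 463 in WT CD8+ libraries. The groups did not overlap, but the spread among KO libraries was wide and the difference of -1.09 ± 0.41 was not called (adjusted p = 0.0821), except without CD8+ cells of KO animal 3 (-1.41, adjusted p = 0.0201). The CD4+ difference was -0.54 ± 0.28 (adjusted p = 0.189). *Bach2* held 247, 220, 160 and 306 in KO CD4+ libraries and 416, 379, 287 and 345 in WT CD4+ libraries, with a difference of -0.63 ± 0.22 (adjusted p = 0.0663). It was called with DESeq2 on whole reads (adjusted p = 0.0441) and with libraries scaled to a common 75th percentile (adjusted p = 0.0386), and without CD4+ cells of KO animal 4 (-0.78, adjusted p = 0.0353). In CD8+ cells *Bach2* had a difference of -0.04 ± 0.30 (adjusted p = 0.934).

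*Myb* and the surface receptors did not differ detectably. *Slamf6* had a difference of -0.01 ± 0.17 in CD4+ cells (95% interval -0.39 to 0.37) and 0.01 ± 0.19 in CD8+ cells (-0.42 to 0.44). *Cxcr5* had -0.33 ± 0.25 in CD4+ cells (-0.89 to 0.22) and -0.39 ± 0.29 in CD8+ cells (-1.04 to 0.27). *Myb* had -0.44 ± 0.25 in CD4+ cells (adjusted p = 0.235) and a CD8+ difference of -0.41 ± 0.41 (adjusted p = 0.479), which was 0.09 without CD8+ cells of KO animal 1. None of the 9 members differed between CD4+ and CD8+ cells in the size of its KO effect by limma's interaction term, where 0.0161% of genes were called, *Cd4* among them (adjusted p = 0.0451). The largest such difference was that of *Id3* (0.74, 95% interval -0.23 to 1.72, adjusted p = 0.951), and 0 members had an unadjusted p under 0.05.

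**Figure D1:**
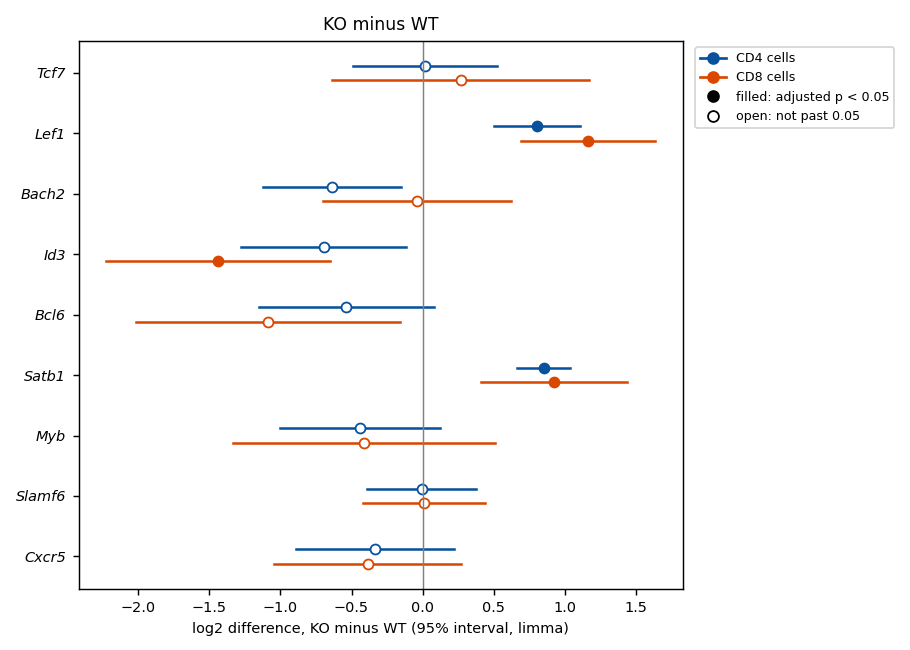
Differences between KO and WT cells for the 9 members in CD4+ (blue) and CD8+ (orange) cells, on the log2 scale with 95% intervals from limma, 4 libraries against 4. Filled points have an adjusted p under 0.05: *Lef1* and *Satb1* in both subsets, on the higher side, and *Id3* in CD8+ cells, on the lower side at -1.44.

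RNA of other cell types also differed between the genotypes. The summed level of 14 myeloid and dendritic cell markers was 2263 to 3742 normalized counts in KO CD4+ against 4023 to 5065 in WT CD4+ libraries, with 8 of 14 called lower, and 7472 to 17896 in KO CD8+ against 11175 to 15671 in WT CD8+ libraries, with 5 of 14 called lower. The 9 neutrophil markers summed to 12.8 to 4264 in KO CD4+ and 2330 to 3578 in WT CD4+ libraries, with 2 called lower, and 14.4 to 2762 in KO CD8+ and 1865 to 4474 in WT CD8+ libraries, with 1 called lower. The 14 B cell markers summed to 2781 to 4092 in KO CD4+ and 6188 to 8107 in WT CD4+ libraries and to 2765 to 4867 in KO CD8+ and 3229 to 4903 in WT CD8+ libraries, with *Ms4a1*, the B cell antigen CD20, at 0 in WT CD4+, KO CD8+ and DP cells. Of the B cell markers tested, 2 of 5 were called higher and 1 lower in KO CD4+ cells, and 1 of 6 higher in KO CD8+ cells. Of 6 NK cell markers 2 were called higher in KO cells of each subset and 1 lower in CD8+ cells, and of 4 erythroid markers 1 was called lower in each. Of 4 plasma cell markers tested 1, *Jchain*, was called lower in KO CD4+ and 0 in KO CD8+ cells in limma, and the list summed to 3114 to 4890 in KO CD4+ against 3798 to 4087 in WT CD4+ libraries. The neutrophil markers reached 7334 in a DP library. Among the KO CD4+ and the KO CD8+ libraries they were highest in animal 3, with 4264 in CD4+ and 2762 in CD8+ cells. The CD4+ value lay above the WT CD4+ range and the CD8+ value inside the WT CD8+ range. In that animal *Lef1* was the KO value nearest to the WT range, at 5213 among CD4+ and 3256 among CD8+ libraries, and so was *Id3* in CD8+ cells (120), all still outside that range. *Id3* in its CD4+ cells (647) lay inside the WT range, and *Satb1* lay above it in both subsets (20101 and 13946). The part of any of these marker lists in the differences between genotypes was not tested.

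CD4+ and CD8+ cells were set against each other within each genotype. In WT animals 8 of the 9 members were higher in CD4+ cells, where 44.5% of genes were called and 22.3% higher and 22.2% lower. The same 8 members had libraries that lay apart, where 41.8% of genes did. *Myb* was the exception. The median difference of the 9 members was 1.08, beside -0.01 over all genes. The receptor *Cxcr5*, which guides cells into B cell follicles, showed the widest gap. WT CD4+ libraries held 2112, 1011, 1428 and 1685 normalized counts of it and WT CD8+ libraries 79, 100, 116 and 167, a 13.5-fold difference (3.75 ± 0.23, adjusted p = 3.74e-08). *Tcf7* was 5.19-fold higher in WT CD4+ than in WT CD8+ cells (2.38 ± 0.14), *Id3* 4.25-fold (2.09 ± 0.17), *Slamf6* 2.93-fold (1.55 ± 0.08), *Bcl6* 2.12-fold (1.08 ± 0.14), *Bach2* 2.03-fold (1.02 ± 0.19), *Satb1* 1.85-fold (0.89 ± 0.06) and *Lef1* 1.64-fold (0.72 ± 0.07), with adjusted p values in limma of 1.12e-08 to 0.000662. *Lef1*, *Bach2* and *Bcl6* were not called in the fit of all 20 libraries (adjusted p = 0.105, 0.0569 and 0.146). *Myb* held 1339, 1241, 1218 and 1247 in WT CD4+ and 1276, 1431, 1152 and 1174 in WT CD8+ libraries, with a difference of 0.01 ± 0.08 and a 95% interval of -0.16 to 0.17.

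In KO animals 4 members were called between the subsets, all higher in CD4+ cells, where 4.22% of genes were called, 2.73% higher and 1.48% lower. These and *Satb1* had libraries that lay apart, where 10.1% of genes did. *Id3* was 7.11-fold higher (2.83 ± 0.40, adjusted p = 0.00566), *Cxcr5* 13.9-fold (3.80 ± 0.27, adjusted p = 0.00016), *Slamf6* 2.90-fold (1.54 ± 0.24, adjusted p = 0.00922) and *Tcf7* 4.37-fold (2.13 ± 0.43, adjusted p = 0.0258). The *Tcf7* call was lost without CD4+ cells of KO animal 1, 3 or 4 or CD8+ cells of KO animal 3 (adjusted p = 0.0649, 0.0755, 0.0796 and 0.0531). Samples of the same animal deviated together, and with the animal as a block *Bcl6* (1.63, adjusted p = 0.000986), *Satb1* (0.82, adjusted p = 0.00707) and *Lef1* (0.35, adjusted p = 0.0205) were called as well. Without CD8+ cells of animal 4 *Satb1* was called without the block (adjusted p = 0.0369). *Bach2* was higher in CD4+ cells of 3 of 4 KO animals, and *Myb* in 1 of 4. The *Lef1* gap between the subsets was 0.35 in KO and 0.72 in WT animals, but the difference between these gaps (-0.36, 95% interval -0.94 to 0.21) was not called.

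**Figure D2:**
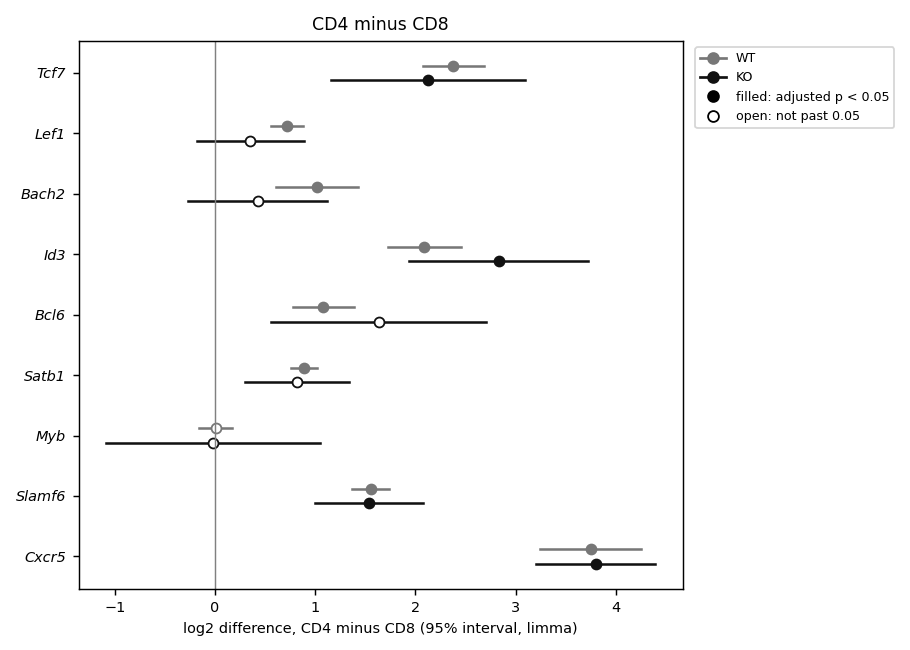
Differences between CD4+ and CD8+ cells for the 9 members in WT (grey) and KO (black) animals, on the log2 scale with 95% intervals from limma without the animal as a block. All members but *Myb* sit to the right of 0 in both genotypes, from 0.35 for *Lef1* to 3.80 for *Cxcr5* in KO animals, and the intervals are wider in KO animals.

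DP cells, for which the libraries held KO cells alone, were compared with the single-positive KO cells. No member was called between DP and KO CD8+ cells in limma, where 0.00823% of genes were called. No member had libraries that lay apart, where 2.7% of genes did. No member had an unadjusted p under 0.05 in limma, and neither edgeR nor DESeq2 called any member. These fits took the libraries as independent, although DP and CD8+ libraries of the same animal deviated together (correlations of 0.44 to 0.761). With the animal as a block, 1447 genes had an unadjusted p under 0.05 in limma, against 237 without it, and still no member was called. *Tcf7* held 4836, 1336, 3040 and 4722 normalized counts in DP cells, close to the 5919, 1458, 3834 and 6199 of CD8+ cells of the same animals. It was lower in DP cells of 4 of 4 animals, by 0.13 to 0.39 on the log2 scale, and so was *Bach2* (194, 83, 51 and 111 against 248, 115, 138 and 206). The differences fitted without the block were -0.29 ± 0.52 for *Tcf7* and -0.78 ± 0.45 for *Bach2*, with adjusted p values of 0.92 and 0.871 in limma. The SD of the differences within animals was smaller for *Tcf7* (0.11) than for *Bach2* (0.48). *Id3* was higher in DP cells of 4 of 4 animals (87, 49, 498 and 138 against 87, 36, 120 and 70), with a difference of 0.86 ± 0.68 that was 0.23 without DP cells of animal 3 and 0.47 with animal 3 left out of both groups, a setting added after the data were seen. *Lef1* held 5931, 5531, 1961 and 5309 in DP cells and was lower than in CD8+ cells of 4 of 4 animals, with log2 differences of -0.73 to -0.021. Its difference of -0.33 ± 0.37 was 0.05 without DP cells of animal 3 but -0.19 with animal 3 left out of both groups.

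Against KO CD4+ cells, DP cells had 3 members called, all lower, where 1.95% of genes were called and 1.26% lower. These and *Satb1* had libraries that lay apart, where 11.2% of genes did. *Cxcr5* held 115, 68, 93 and 67 normalized counts in DP cells against 791, 1401, 1144 and 1600 in KO CD4+ cells, a 14.1-fold difference (-3.82 ± 0.29, adjusted p = 0.000398). *Slamf6* held 3999, 2411, 2846 and 3757 against 8019, 6901, 8650 and 12699 (-1.47 ± 0.22, adjusted p = 0.0102). *Tcf7* was 5.33-fold higher in CD4+ cells (-2.41 ± 0.40, adjusted p = 0.0171), a call lost without CD4+ cells of animal 1, 3 or 4 (adjusted p = 0.0503, 0.0616 and 0.0576). With the animal as a block *Bcl6* (-1.82, adjusted p = 0.0161), *Id3* (-1.97, adjusted p = 0.031) and *Satb1* (-0.92, adjusted p = 0.0304) were also called lower in DP cells. Without DP cells of animal 3 *Id3* had -2.60 (adjusted p = 0.0193), and without those of animal 4 *Bcl6* had -2.22 (adjusted p = 0.0497) and *Satb1* -1.15 (adjusted p = 0.0209). Both DP comparisons share the DP libraries and are therefore not independent of each other.

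**Figure D3:**
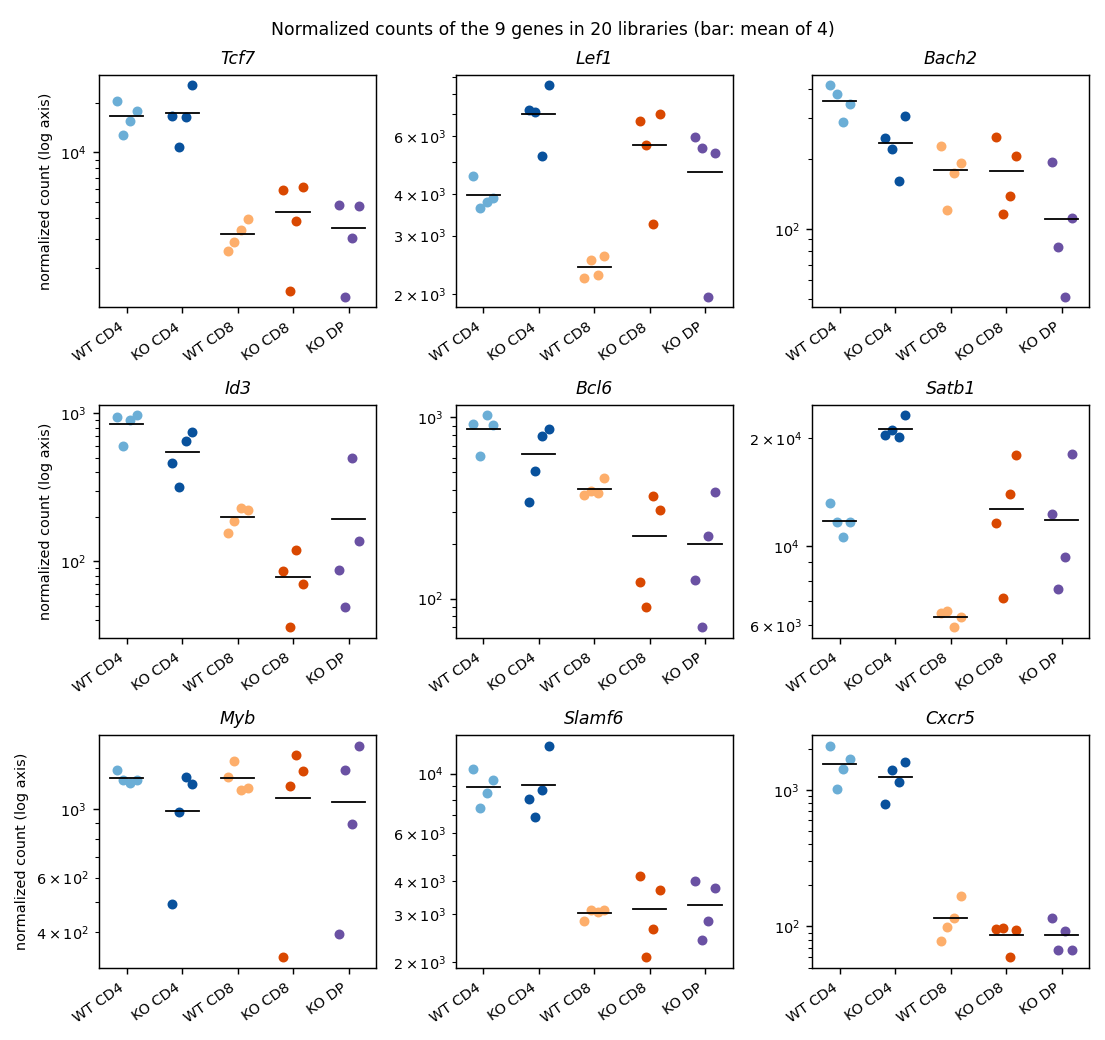
Normalized counts of the 9 members in each of 20 libraries, on a log axis, with points for libraries and a bar for the mean of 4. *Tcf7*, *Slamf6* and *Cxcr5* separate CD4+ from CD8+ and DP cells in both genotypes, *Lef1* and *Satb1* separate KO from WT cells within each subset, and *Myb* does neither.

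KO libraries varied more than WT libraries, for the members as for most genes tested. The SD on the log2 scale was larger in KO cells for 7 of 9 members in CD4+ cells and 8 of 9 in CD8+ cells, and it was larger for 81.0% and 89.1% of all genes tested. For some members the lowest KO library came from the same animal in all 3 subsets. *Myb* was lowest in animal 1 in all 3 subsets, with 492 normalized counts in CD4+, 331 in CD8+ and 393 in DP cells, while the other KO libraries held 894 to 1610. *Tcf7* was lowest in animal 2 in all 3 subsets, with 10798, 1458 and 1336, and so was *Id3*, with 316, 36 and 49. *Slamf6* was lowest in animal 2 as well, with 6901, 2082 and 2411. *Lef1* was lowest in animal 3 in all 3 subsets, with 5213, 3256 and 1961. For *Bach2*, *Bcl6*, *Satb1* and *Cxcr5* the lowest library did not come from the same animal in all 3 subsets. The share of all genes with the same lowest animal was not computed. Animals low in 1 member were therefore not low in all: animal 1 had the lowest *Myb* and the highest *Slamf6* of the CD8+ and DP libraries (4185 and 3999), and animal 3 had the lowest *Lef1* and, in CD8+ cells, the highest *Id3* and *Bcl6* (120 and 369). Over the 20 deviations from group means, which share animals, *Tcf7* and *Slamf6* varied together (Pearson r = 0.916), *Satb1* followed *Tcf7* (0.784), and *Lef1* and *Id3* ran opposite (-0.659). The largest deviations of both *Lef1* and *Id3* were those of DP cells of KO animal 3 (-1.13 and 1.91), the library with the fewest genes with reads. The r of *Lef1* and *Id3* without that library was not computed.

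**Figure D4:**
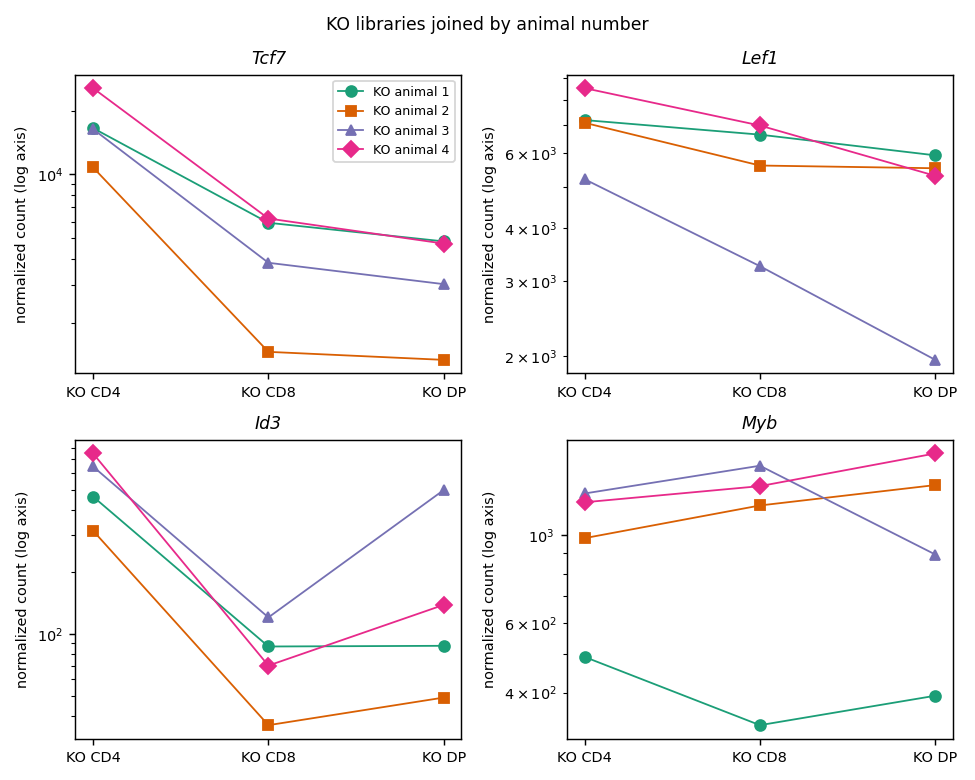
Normalized counts of *Tcf7*, *Lef1*, *Id3* and *Myb* in KO cells, on log axes, with libraries of the same animal joined by lines. Animal 1 is lowest in *Myb*, animal 2 in *Tcf7* and *Id3* and animal 3 in *Lef1* in each of the 3 subsets, and *Id3* reaches 498 in DP cells of animal 3.

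Levels between genes were compared per kb of annotated exons, with the genes lying on GRCm38 chromosomes 11 (*Tcf7*, 52246527 to 52283383), 3 (*Lef1*, 131110297 to 131224357), 4 (*Bach2*, 32238413 to 32586109, and *Id3*, 136143822 to 136145392), 16 (*Bcl6*, 23965050 to 23988866), 17 (*Satb1*, 51736187 to 51833290), 10 (*Myb*, 21124930 to 21160984), 1 (*Slamf6*, 171917458 to 171948958) and 9 (*Cxcr5*, 44511787 to 44526444). *Tcf7* was the most abundant member per kb in every group, with 6322 normalized counts per kb in WT CD4+, 6596 in KO CD4+, 1215 in WT CD8+, 1658 in KO CD8+ and 1327 in DP cells, above 84.6% to 97.6% of genes tested in a group. *Bach2* was the lowest member in every group, with 11.1 to 35.9 normalized counts per kb. *Satb1* came second in KO CD4+ cells with 1112 normalized counts per kb, against 837 for *Slamf6* and 796 for *Lef1*. In WT CD4+ cells *Slamf6* came second with 826, ahead of *Satb1* with 618. *Lef1* held 452 per kb in WT CD4+ and 275 in WT CD8+ cells, and 796 and 639 in the KO cells of these subsets.

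The order of the 5 groups differed between members. For *Tcf7*, *Slamf6*, *Cxcr5*, *Id3*, *Bcl6* and *Bach2* both CD4+ groups stood above all CD8+ and DP groups, whereas for *Lef1* the 3 KO groups came first and for *Satb1* KO CD4+ cells did. The full order depended on the setting: 4 of 9 members kept theirs with quantile or 75th percentile scaling and 2 of 9 without the libraries of KO animal 2. Of the 36 pairs of neighbours in these orders, 8 had libraries that did not overlap, each with an exact permutation p of 0.0286, the smallest that 4 libraries against 4 allow, and 0.129 after adjustment over the 36 pairs. These were the step between CD4+ and the next group for *Tcf7*, *Id3*, *Slamf6* and *Cxcr5*, WT CD8+ above KO CD8+ cells for *Bcl6*, WT CD4+ above WT CD8+ cells for *Lef1*, and for *Satb1* both KO CD4+ above KO CD8+ and DP above WT CD8+ cells. For *Satb1*, KO CD8+, WT CD4+ and DP cells lay within 0.10 of each other on the log2 scale and overlapped. No neighbours were apart for *Bach2* or *Myb*. Neighbours were picked by the order of the same values that were compared, and the groups of a genotype share animals. The exact p values of these pairs are therefore a description and not a test of the order. The share of such pairs over all genes was not computed.

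Genes with the most similar pattern were taken as those with the highest Pearson r over the 20 libraries, among 10033 genes. Libraries share animals and groups, so r is a description. *Tcf7* and *Slamf6* were among each other's 3 most similar genes (r = 0.977) and shared *Asap1*, an activator of small GTPase turnover (0.984 and 0.978), with *Nsg2* next for *Tcf7* (0.973) and *Gpr183*, an oxysterol receptor, for *Slamf6* (0.971). *Cxcr5* was most similar to *Phldb1* (0.967), *Gata3*, a helper T cell factor (0.966), and *Espn* (0.965). *Id3* was closest to *Tnfrsf4*, the costimulatory receptor OX40 (0.960), *Casp4* (0.960) and *Smco4* (0.954), and *Bcl6* to the immediate early gene *Egr1* (0.974), *Zfp36l1* (0.968) and *Tmem185b* (0.963). *Lef1* was close to *Tax1bp1* (0.948) and *Tsnax* (0.947), *Satb1* closest to *Smim13* (0.932), *Sestd1* (0.926) and *Il4ra*, the IL-4 receptor chain (0.915), *Bach2* to *Phf21a* (0.934), *Suv420h1* (0.912) and *Atxn7l1* (0.907), and *Myb* to *Slc43a3* (0.953), *Iqgap3* (0.912) and *Mis12* (0.904). *Lef1* had r of 0.394 with *Tcf7* and 0.729 with *Satb1* over these libraries.

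Of *Prdm1*, *Id2*, *Tbx21*, *Zeb2* and *Tox*, factors of effector, terminal or exhausted T cells, none was called higher in KO cells by limma. *Prdm1*, which BCL6 represses, had a difference of -0.01 ± 0.12 in CD4+ and -0.27 ± 0.13 in CD8+ cells (adjusted p = 0.96 and 0.141). *Id2*, the effector counterpart of *Id3*, had 0.26 ± 0.12 and -0.06 ± 0.06 (adjusted p = 0.132 and 0.476), and *Tbx21*, the effector factor T-bet, had -0.28 ± 0.15 and -0.37 ± 0.19 (adjusted p = 0.19 and 0.18). *Zeb2*, which drives terminal effector cells, was lower in KO cells of both subsets (-1.08 ± 0.25, adjusted p = 0.0194, and -0.50 ± 0.14, adjusted p = 0.0275). *Tox*, the exhaustion factor, was lower in KO CD8+ cells (-0.96 ± 0.19, adjusted p = 0.00724) and had -0.54 ± 0.23 in CD4+ cells (adjusted p = 0.115).

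Genes that work with the members were counted by list. Of the TCF/LEF partners and targets, 1 of 17 tested was higher and 2 lower in KO CD4+ cells, and 4 of 19 were higher and 2 lower in KO CD8+ cells. *Axin1*, a scaffold of the complex that degrades beta-catenin, was higher in CD4+ cells (0.46), while *Jup* (-1.43) and *Ccnd1* (-0.95) were lower there. *Lrp6* was higher in CD8+ cells (0.54), while *Tle2* (-2.36) and *Myc* (-0.65) were lower there. The mean normalized counts of *Tle2* were low, at 6.93 (KO) against 33.2 (WT) for CD8+ libraries. The median difference of this list was 0.03 in CD4+ and -0.09 in CD8+ cells. Of 6 genes tested on the list of E proteins, Id proteins and related factors, the E protein gene *Tcf12* was higher in both subsets (0.42, adjusted p = 0.0134, and 0.62, adjusted p = 0.00349). *Lmo2*, a related factor, was lower in CD8+ cells (-1.91). Among the BCL6 corepressors, *Patz1* (0.79 and 0.80), *Mta3* (0.30 and 0.46) and *Zbtb7a* (0.27 and 0.29) were the 3 of 10 called, all higher in both subsets.

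Of 14 BACH2 and MAF/AP-1 partners, 1 was higher and 6 were lower in each subset, with a median difference of -0.37 in CD4+ and -0.52 in CD8+ cells. The lower genes were led by the immediate early genes *Fosb* (-4.30 and -4.12), *Fos* (-3.01 and -3.00) and *Jun* (-2.72 and -2.97), and the higher gene was *Bach1*, the paralog of *Bach2* (0.67, adjusted p = 0.022, and 1.02, adjusted p = 0.00346). Of the 24 naive and memory T cell genes, 4 were higher and 0 lower in KO CD4+ cells by limma, and 7 were higher and 2 lower in KO CD8+ cells, with a median difference of 0.18 and 0.43. They were led by *Il7r*, the receptor for the survival cytokine IL-7, with 1.20 in CD4+ and 1.65 in CD8+ cells, and in CD4+ cells by *Klf2*, a factor that keeps naive T cells quiescent (0.90). In CD8+ cells *Zfp36l2* was higher (1.10) and *Eomes*, a memory factor of CD8+ cells, was lower (-1.19).

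Of 12 stem-like CD8+ T cell genes, 1 was higher and 4 lower in KO CD4+ cells, with *Jchain*, which is also on the plasma cell list (-3.47, with group means of 2.21 and 19.8 normalized counts), *Xcl1* (-2.52) and *Cd83* (-2.41) lower, and 1 was higher and 2 lower in KO CD8+ cells, with *Tnfsf4* (-1.48) and *Traf1* (-0.60) lower and *Nfkb1* (0.30) higher. Of the follicular helper genes, 2 of 15 were lower in CD4+ cells, *Il21* (-1.35) and *P2rx7* (-0.75), and 1 of 14 in CD8+ cells, *Pdcd1* (-0.77). *Slamf8* was the 1 of 8 SLAM receptor and adaptor genes called, lower in both subsets (-2.28 and -3.24). Its mean normalized counts were low, at 18.5 (KO) against 85.5 (WT) for CD4+ libraries and 10.1 against 75.9 for CD8+ libraries. Whether its RNA came from T cells or from the other cell types described above was not tested. Of 4 genes on the list of MYB family and coactivators, *Crebbp* (0.44) and *Ep300* (0.26) were higher in CD8+ cells. Both encode coactivators that bind MYB, and no paralog of *Myb* on the list was called. Of 21 effector and terminal factors, 3 were higher and 5 lower in CD4+ cells and 1 higher and 7 lower in CD8+ cells, with *Gzma*, a granule protease, higher (2.80 and 1.93) and *Nr4a2* (-1.93 and -2.29) and *Nr4a3* (-1.35 and -1.52) lower. The share of each list that was called stands beside 18.4% of all genes in CD4+ and 25.2% in CD8+ cells.

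**Figure D5:**
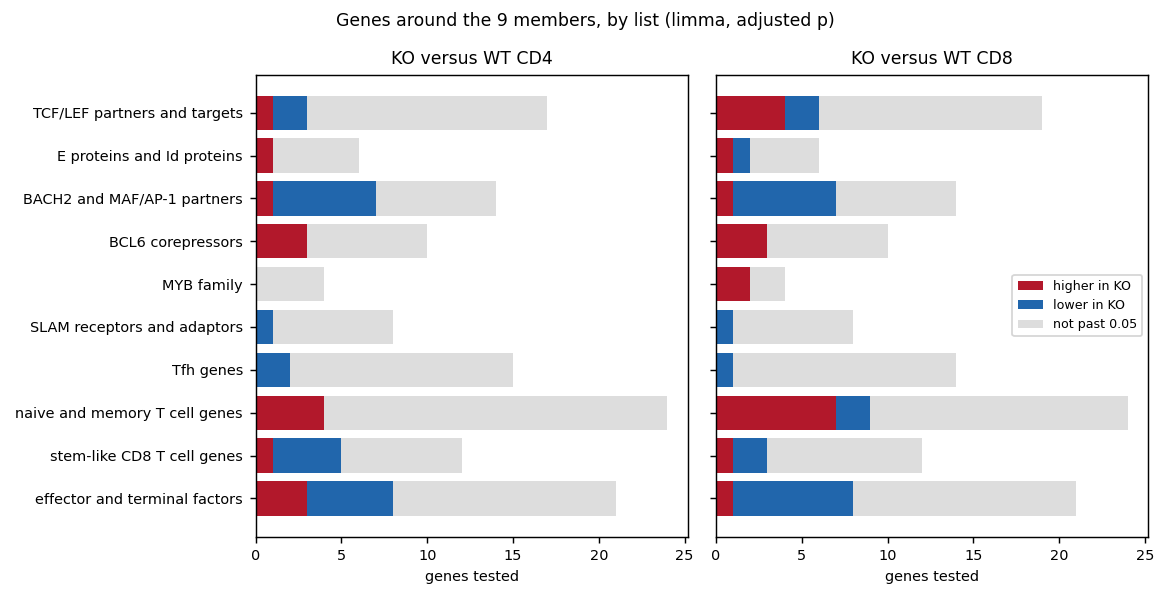
Number of genes tested in each list of genes that work with or against the members, for KO against WT CD4+ and CD8+ cells. Red is higher in KO, blue is lower in KO and grey did not pass an adjusted p of 0.05, so that the AP-1 list shows 1 red and 6 blue genes in both panels.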

How the data were processed

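Donor T cells were sorted from spleens, and strand-specific poly(A) libraries were sequenced. Per the labels, the submitters' processing notes name STAR 2.7.2b, DESeq2 and GRCm38/mm10, and the study's methods give another STAR version. Read pairs were counted on exons with respect to strand. The authors deposited a signal for each gene, its read count divided by a DESeq2 size factor for the library, for 17101 genes. Undoing that division returned whole reads for 100% of values, and these served as input to edgeR 4.0.16 and DESeq2 1.42.0.

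The main test was limma 3.58.1 (R 4.3.3, trended eBayes, 2-sided), applied to log2 of the normalized count plus 1. Genes entered when their mean over the compared libraries was 10 or above, and p values were adjusted over every gene tested (Benjamini-Hochberg, 0.05). All 9 members passed this filter in every comparison. Single values were compared by 2-sided exact permutation in scipy 1.17.1. The fits were tested on simulated data. Alternatives changed 1 step each: the pseudocount (10), the filter (none, or 50), the scaling (quantile, 75th percentile), the tool, a joint fit of 20 libraries, a block for the replicate number, or the omission of a library.

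The spread between 4 libraries set the precision, since the lowest group mean of a member was 78.2 normalized counts. Libraries with equal numbers deviated together within a genotype, with correlations of deviations over genes of 0.394 to 0.761 in KO and 0.25 to 0.316 in WT cells, so within a genotype the number was read as the animal. The labels do not say so, and p values measure the spread between these libraries, which may be partly technical. Libraries of a group were compared in 30 pairs, and none was a duplicate (lowest chi-square for each degree of freedom 10.6). Exon lengths are from GENCODE and windows from RefSeq.

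The members and lists were chosen with earlier results of these data known. Named are the members, the 3 genes most similar to each, up to 3 called genes of largest difference for each list and comparison, *Dnmt3a*, the coreceptors and the factors *Prdm1*, *Id2*, *Tbx21*, *Zeb2* and *Tox*. Some genes that this rule names are not reported here. *Rag1*, *Ms4a1*, *Bach1* in both subsets and the counts of the marker lists were added after their values were seen.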

Additional observations from a re-analysis of the deposited data

Results flagged for a closer look

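In each of 45 groups of 4 libraries (9 members in 5 groups) the gap between an extreme library and its nearest neighbour was set against the range of the group, with the 95% critical value of Dixon's test as the limit. Chance passes about 1 in 20 such groups, and 2 of 45 did.

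*Lef1* in DP cells of KO animal 3 held 1961 normalized counts, and the other DP libraries held 5309 to 5931, so that the gap took up 0.843 of the range. This is the library with 11783 genes with reads. The same animal had the lowest *Lef1* in CD4+ and CD8+ cells too.

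*Cxcr5* in CD8+ cells of KO animal 3 held 59.4 normalized counts, and the other KO CD8+ libraries held 93.8 to 96.8, with a gap of 0.920 of the range.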

How the results depend on the processing

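With all 20 libraries in 1 fit, members called went from 2 to 1 in KO against WT CD4+ cells, from 3 to 7 in DP against KO CD4+ cells and from 8 to 5 in WT CD4+ against WT CD8+ cells. Genes called went from 2274 to 1304 and from 3118 to 2017 between genotypes in CD4+ and CD8+ cells, from 237 to 1459 in DP against KO CD4+ cells, from 5592 to 1610 between WT subsets, from 514 to 885 between KO subsets and from 2 to 1 for the interaction. DESeq2 called 5 members and 728 genes in DP against KO CD4+ cells, 3 genes in DP against KO CD8+ cells in place of 1, 956 between KO subsets and 21 for the interaction, where edgeR called 1 and limma without a filter 7. The 75th percentile scaling called 4 members in CD4+ cells. It moved the median over all genes between genotypes to -0.16 in CD4+ and -0.15 in CD8+ cells. The cause of these shifts was not tested.

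With the replicate number as a block, 7 members and 2305 genes were called between KO subsets and 6 members and 860 genes in DP against KO CD4+ cells. Between genotypes equal numbers are different donors, only 2 numbers are shared, and deviations of equal numbers correlated at 0.105 to 0.127 in CD4+ and 0.0554 to 0.165 in CD8+ cells. That block, with 2 libraries against 2, called 0 members in either subset by limma, 27 genes in CD4+ cells, 85 in CD8+ cells and 173 for the interaction. It gave *Tcf7* -0.27 in CD4+ and -0.19 in CD8+ cells and *Slamf6* -0.33 in CD8+ cells. The block changed no call of a member in the remaining comparisons.

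Some differences that were not called changed sign. Between genotypes in CD4+ cells *Tcf7* had -0.096 with quantile and -0.098 with 75th percentile scaling, and *Slamf6* 0.032 with edgeR and 0.034 with DESeq2. In CD8+ cells *Bach2* had 0.25 with quantile scaling, and *Slamf6* -0.0064 with quantile and -0.10 with 75th percentile scaling. *Myb* had 0.0028 in DP against KO CD8+ cells and -0.0049 between WT subsets with quantile scaling, and -0.040 in DP against KO CD4+ cells and -0.0018 between WT subsets with 75th percentile scaling. *Cxcr5* had an interaction of -0.27 with quantile scaling.

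With KO animal 3 left out of both groups, a setting chosen after seeing the data, *Bcl6* had 0.0017, *Satb1* 0.058 and *Myb* 0.23 in DP against KO CD8+ cells, where all 3 were below 0 with 4 animals.

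Leaving out 1 library at a time gave 2 to 4 members called in KO against WT CD4+ cells, 1 to 4 in CD8+ cells and 2 to 5 in DP against KO CD4+ cells. Genes called were 628 (without WT CD4+ library 6) to 2963 (without KO CD4+ library 3) between genotypes in CD4+ cells, 1633 (without WT CD8+ library 6) to 4092 (without KO CD8+ library 3) in CD8+ cells, 84 to 279 in DP against KO CD4+ cells, 233 to 486 between KO subsets and 0 to 5 for the interaction in limma, and fewer samples were fitted each time. Differences that took both signs, none of them called with all libraries, ran as follows. Between genotypes *Tcf7* had -0.19 to 0.22 and *Slamf6* -0.18 to 0.11 in CD4+ cells, and *Bach2* had -0.225 to 0.14, *Myb* -0.64 to 0.089 and *Slamf6* -0.14 to 0.19 in CD8+ cells. In DP against KO CD8+ cells *Tcf7* had -0.74 to 0.12, *Lef1* -0.57 to 0.051, *Bcl6* -0.59 to 0.23, *Satb1* -0.35 to 0.091, *Myb* -0.515 to 0.40, *Slamf6* -0.12 to 0.22 and *Cxcr5* -0.19 to 0.086. *Myb* had -0.30 to 0.42 in DP against KO CD4+ cells, -0.033 to 0.071 between WT subsets and -0.52 to 0.29 between KO subsets. The interaction was -0.32 to 0.12 for *Satb1*, -0.53 to 0.28 for *Myb*, -0.20 to 0.14 for *Slamf6* and -0.14 to 0.25 for *Cxcr5*.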
